A study of Mus musculus with 6 samples.

Results

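The acute phase genes followed here were Serpina3n, Saa3, Hp, Lcn2, Cp, Orm1 and Ptx3, measured in hearts of mice infused with angiotensin II (Ang II), a vasoconstrictor peptide whose infusion is used as a model of hypertension. They were chosen by symbol, and all 7 were found among the 22556 genes of the deposited table. The hearts came from wild-type mice in 3 groups: a control group at 0 days of infusion, and groups given Ang II at 1000 ng/kg/min under the skin by osmotic minipump for 7 or 28 days. Each group held 2 libraries, which makes 6 in all, prepared from total RNA of the heart and sequenced on an Illumina HiSeq. The labels give no strain, sex or age, and do not state what the control mice received or whether each library came from its own mouse. What p-values measure here is thus the spread between libraries, which may be technical.

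Acute phase proteins are plasma proteins whose level shifts during inflammation. The liver makes most of them, after cytokines such as interleukin 6 and interleukin 1 reach hepatocytes and activate STAT3, C/EBP and NF-kB transcription factors. Several are also made outside the liver, by fibroblasts, macrophages, neutrophils, fat cells or the endothelium, and Serpina3n, Saa3, Lcn2 and Ptx3 are among those best known from tissues other than liver. By role, the genes described here comprise a protease inhibitor (Serpina3n), a lipid-bound apolipoprotein (Saa3), proteins that bind haemoglobin, iron carriers or copper (Hp, Lcn2 and Cp), a plasma carrier of small molecules (Orm1) and a soluble pattern recognition molecule (Ptx3).

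Levels were the authors' RPKM, which corrects reads for transcript length and library size, so levels of different genes can be set side by side per length. The most common product of low RPKM and transcript length was taken as 1 read. By this the libraries were estimated to hold between 10900000 and 14200000 reads, most in the 7 day hearts. Between 15636 and 16036 genes lay above 0. All 8 cardiomyocyte markers were present in every library, with a summed level of 33997 to 45754 RPKM. Of the 10 hepatocyte markers, Apoc3 and Fgb were at 0 in all libraries, and Alb, the albumin gene, was at 0 in 5 libraries and at 0.0381 RPKM in control replicate 2. The hepatocyte list summed to 6.59 and 7.70 RPKM in the control hearts, 4.65 and 8.22 at 7 days and 11.7 and 5.92 at 28 days, of which Ahsg held between 1.72 and 6.63 RPKM. Atrial markers varied within groups: Myl7, the atrial myosin light chain, was at 52.5 and 646 RPKM in control hearts, 41.2 and 66.2 in 7 day hearts and 341 and 182 in 28 day hearts, so control replicate 1 lay with the 7 day hearts and control replicate 2 was highest. Nppa, which cardiomyocytes under load also express, was at 1648 to 3040 RPKM in the infused hearts and at 215 and 1605 RPKM in the control hearts.

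Changes were tested on log2(RPKM + 0.5) in limma over the 11096 genes with a mean of at least 1 RPKM, and an adjusted p under 0.05 (Benjamini-Hochberg, over all genes tested) counted as a pass. The added 0.5 RPKM makes log2 changes of low genes smaller than those of the levels. Statements that the hearts of 1 group lay above those of another only describe the libraries. How often all genes separate in that way was not counted. Serpina3n, Saa3, Hp, Lcn2 and Cp were tested in this way. Orm1 and Ptx3 averaged less than 1 RPKM and were read from the same test without that filter, over 17585 genes, a setting chosen after the data had been seen.

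At 7 days 4 of the 5 tested genes rose, namely Serpina3n, Saa3, Hp and Lcn2, while Cp did not pass. Saa3 and Hp averaged 0.102 and 0.931 RPKM in the control hearts. They thus reached the mean of 1 RPKM over all libraries only through the infused hearts. Of all tested genes, 15.4% passed at 7 days in either direction, 13.2% higher and 2.27% lower. With median ratio scaling 6.57% were higher and 3.84% lower, and with quantile normalization 6.32% were higher and 4.75% lower, and each scaling left calls for 2 of the 5 acute phase genes. The median log2 change was 2.38 over the 5 tested acute phase genes, which is the value of Hp, and 0.14 over all tested genes. The median over all genes was -0.01 with median ratio scaling of the libraries and -0.04 with quantile normalization. Ptx3 rose as well in the unfiltered test, in which 6.62% of genes were higher. That test called Serpina3n but not Hp, Lcn2 or Saa3 (limma adjusted p = 0.053, 0.09 and 0.101). At 28 days 1 of the 5 rose, Serpina3n, against 4.41% of all tested genes that passed in either direction and 2.87% that were higher. By an unadjusted p under 0.05 with a threshold on the fold change, 3 of the 5 rose there, beside 4.35% of all tested genes.

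**Figure D1:**
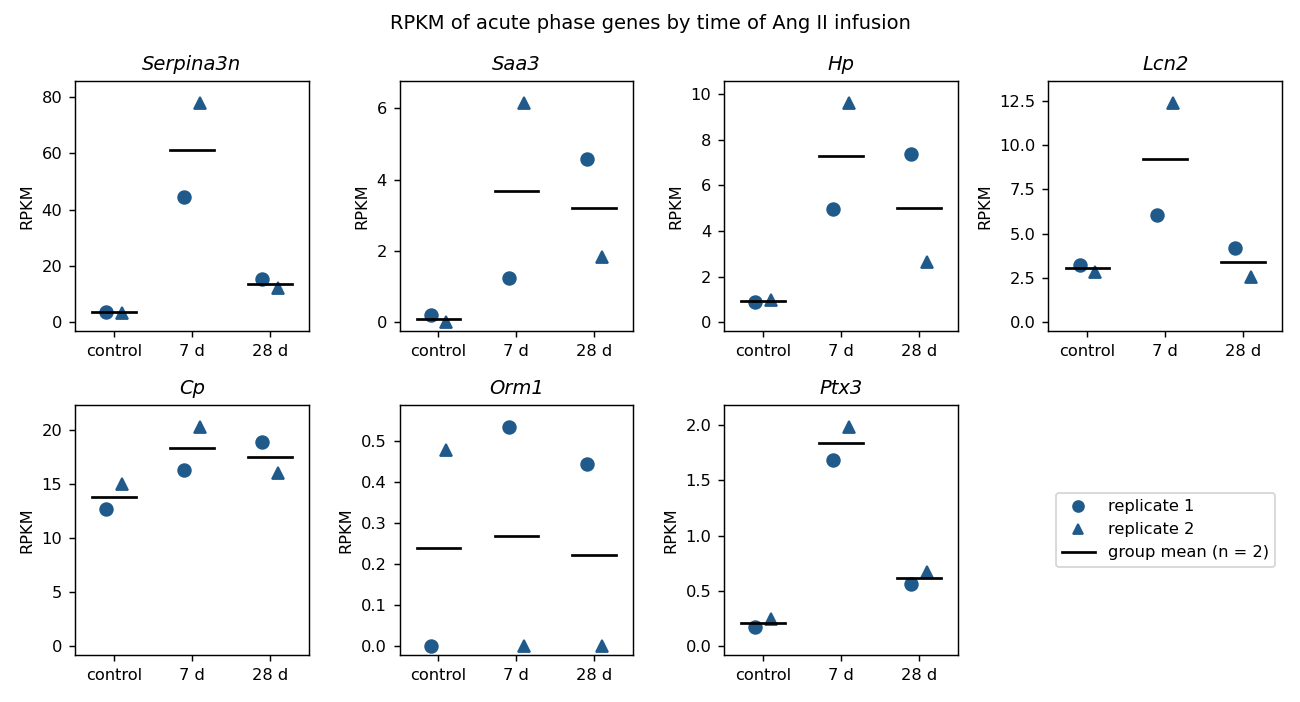
RPKM (vertical axes, each scaled to its gene) of the 7 acute phase genes in control hearts and in hearts after 7 and 28 days (d) of Ang II. Circles and triangles are the libraries of replicate 1 and 2 and bars are group means (n = 2). Serpina3n, Saa3, Hp, Lcn2, Ptx3 and, by a small margin, Cp were higher in both 7 day libraries than in either control. The share of all genes with such a separation was not counted. Orm1 was at 0 in 1 library of every group.

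Serpina3n encodes a secreted serine protease inhibitor of the antichymotrypsin family, which blocks leukocyte proteases such as cathepsin G and neutrophil elastase. Its level was 3.71 and 3.48 RPKM in the control hearts, 44.3 and 77.8 RPKM at 7 days and 15.3 and 12.2 RPKM at 28 days. Every infused heart lay above both controls, and both 7 day hearts lay above both 28 day hearts. In estimated reads this was 93.2 and 92.2 in control hearts, 1299 and 2242 in 7 day hearts and 382 and 275 in 28 day hearts, so counting error was small beside the difference between the 7 day hearts. The mean was 61.1 ± 23.7 RPKM in 7 day hearts and 3.60 ± 0.158 RPKM in control hearts (SD, n = 2 each), and the log2 change of 3.86 (SE 0.25; limma adjusted p = 0.00048) ranked 10 of 11096 from the highest. In a whole heart, more cells that express a gene and more RNA per cell cannot be told apart. By mean RPKM the gene ranked 7547 of 22556 in control, 759 in 7 day and 3107 in 28 day hearts.

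Serpina3n was still higher at 28 days, with a mean of 13.8 ± 2.19 RPKM in 28 day hearts and 3.60 ± 0.158 RPKM in control hearts (log2 change 1.79, SE 0.25; limma adjusted p = 0.0154). It fell between the infused groups, by 2.06 on the log2 scale in 28 day relative to 7 day hearts (limma adjusted p = 0.0089). The 7 day call and the call between infused groups held without any single library, with limma adjusted p of at most 0.00438 and 0.042. The 28 day call was lost without control replicate 1 (limma adjusted p = 0.102) or control replicate 2 (limma adjusted p = 0.0703), and without the filter on low genes (limma adjusted p = 0.0734). Serpina3n belongs to a cluster of close paralogs, and 6.9% of its 50-base windows also occur in transcripts of Serpina3e-ps, Serpina3g, Serpina3c or Serpina3f. Serpina3c and Serpina3f reached at most 0.692 and 0.533 RPKM. Serpina3g was at 0.466 and 0.319 RPKM in control hearts, 1.20 and 1.30 in 7 day hearts and 0.514 and 0.310 in 28 day hearts. Serpina3i, another member of the cluster, was at 0.0925 and 0.0580 RPKM in control hearts, 0.944 and 1.53 in 7 day hearts and 0.313 and 0.0513 in 28 day hearts. In the unfiltered test Serpina3g, Serpina3i and Serpina3f rose at 7 days, by 0.97, 1.57 and 0.66 on the log2 scale (limma adjusted p = 0.0321, 0.0284 and 0.0229). Each call was lost whichever library was left out, as were nearly all calls of that test.

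Of the 7 genes, 5 had a RefSeq start site in the sequence table at hand, which is on GRCm38.p6. The stretches before the start sites of Serpina3n, Lcn2, Ptx3 and Saa3 are shown because these genes were raised at 7 days. They were searched on both strands, over 250 bases before the start site, for TTCNNNGAA (STAT), TTNNGCAA (C/EBP) and GGG followed by TCC after 4 bases of any kind (NF-kB), and capitals mark the matches in the printed part. Sequences run in the direction of the gene. The Serpina3n stretch, chr12:104406458-104406645 on the plus strand, ends before the outermost annotated start of the gene and holds a forward NF-kB match 171 to 162 bases before the start site; a reverse NF-kB match at 42 to 33 bases lies in the part not printed.
Serpina3n: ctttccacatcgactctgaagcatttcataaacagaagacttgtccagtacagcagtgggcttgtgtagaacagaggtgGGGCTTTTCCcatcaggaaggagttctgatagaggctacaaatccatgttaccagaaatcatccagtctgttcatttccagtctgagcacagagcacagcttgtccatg
The Lcn2 stretch, chr2:32387740-32387989 on the minus strand, holds a C/EBP match and an NF-kB match, both in reverse, at 216 to 209 and at 102 to 93 bases before the start site.
Lcn2: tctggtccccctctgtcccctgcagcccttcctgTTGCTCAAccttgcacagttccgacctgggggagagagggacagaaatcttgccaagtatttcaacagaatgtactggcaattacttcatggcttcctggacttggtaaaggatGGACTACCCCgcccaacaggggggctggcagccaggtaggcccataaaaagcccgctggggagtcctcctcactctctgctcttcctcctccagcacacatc
The Ptx3 stretch, chr3:66219637-66219886 on the plus strand, holds a forward C/EBP match 57 to 50 bases before the start site.
Ptx3: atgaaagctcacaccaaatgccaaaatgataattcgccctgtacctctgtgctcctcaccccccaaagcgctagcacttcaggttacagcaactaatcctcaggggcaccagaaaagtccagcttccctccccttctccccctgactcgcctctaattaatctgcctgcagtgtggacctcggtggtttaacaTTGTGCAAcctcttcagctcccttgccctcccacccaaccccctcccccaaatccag
For Saa3 the 30 bases around its forward C/EBP match are given, chr7:46715757-46715786 on the minus strand, which lie 5′ of the start site used here but inside the annotated gene.
Saa3: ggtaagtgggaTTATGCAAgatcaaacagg
The marked matches do not overlap each other. Over all 32851 promoters of the table, the STAT letters occur in 7.02%, the C/EBP letters in 9.56% and the NF-kB letters in 16.5%. For Cp, 1 of 2 start sites had a C/EBP match, 70 to 63 bases before it. The STAT letters were found in none of the windows of these 5 genes. A match describes letters only and is not a measured binding site.

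Saa3 encodes serum amyloid A3, an apolipoprotein of high density lipoprotein that in mice is made chiefly outside the liver, in macrophages and fat among other tissues. It was at 0.204 and 0 RPKM in the control hearts, 1.23 and 6.14 RPKM at 7 days and 4.59 and 1.84 RPKM at 28 days. All infused hearts lay above both controls, and the 7 and 28 day hearts overlapped. The control value of 0.204 RPKM stood for an estimated 1.38 to 5.46 reads, depending on which transcript length was used, so the size of the change against the controls is poorly fixed.

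The mean of Saa3 was 3.69 ± 3.47 RPKM in 7 day hearts and 0.102 ± 0.144 RPKM in control hearts, and it rose by a log2 change of 2.52 (SE 0.62; limma adjusted p = 0.0373). This change was 4.05 with 0.1 RPKM added in place of 0.5, and 1.86 with 1 RPKM added, where it did not pass (limma adjusted p = 0.0556). Leaving out 1 library ended the call where that library was control replicate 1 (limma adjusted p = 0.122), control replicate 2 (0.156) or 7 day replicate 2 (0.142, at a log2 change of 1.55). At 28 days the mean was 3.21 ± 1.94 RPKM, 2.54 above the controls on the log2 scale without passing (95% interval 1.08 to 4.0; limma adjusted p = 0.0677). The difference of 28 day from 7 day hearts was 0.03 on the log2 scale, with an interval of -1.44 to 1.49. The liver forms of serum amyloid A were close to absent: Saa2 and Saa4 were at 0 in all libraries, and Saa1 was at 0.149 RPKM in 7 day replicate 2, at 0.191 RPKM in 28 day replicate 2 and at 0 in the others.

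Hp encodes haptoglobin, which binds free haemoglobin and delivers it to the macrophage receptor CD163. Its level was 0.889 and 0.972 RPKM in the control hearts, 4.96 and 9.60 RPKM at 7 days and 7.36 and 2.64 RPKM at 28 days. Each infused heart lay above both controls, and the infused groups overlapped. The mean was 7.28 ± 3.28 RPKM in 7 day hearts and 0.931 ± 0.0584 RPKM in control hearts, and Hp rose by a log2 change of 2.38 (SE 0.44; limma adjusted p = 0.0146). It no longer passed when control replicate 1, control replicate 2 or 7 day replicate 2 was left out (limma adjusted p = 0.0826, 0.0646 and 0.0995). At 28 days the log2 change was 1.80 and did not pass (95% interval 0.77 to 2.82; limma adjusted p = 0.0663), but without 28 day replicate 2 it was 2.46 and passed (limma adjusted p = 0.0198). The receptor gene Cd163 was at 4.92 and 6.41 RPKM in control hearts, 3.22 and 5.49 in 7 day hearts and 6.06 and 3.78 in 28 day hearts, and did not pass in any comparison.

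Lcn2 encodes lipocalin 2, also called neutrophil gelatinase-associated lipocalin, which binds bacterial iron carriers. It was at 3.26 and 2.82 RPKM in the control hearts, 6.03 and 12.4 RPKM at 7 days and 4.21 and 2.57 RPKM at 28 days. Both 7 day hearts lay above all other hearts, and the 28 day hearts lay on either side of the controls. The mean was 9.20 ± 4.48 RPKM in 7 day hearts and 3.04 ± 0.315 RPKM in control hearts, and Lcn2 rose by a log2 change of 1.38 (SE 0.33; limma adjusted p = 0.0335). This call, like that of Saa3, was lost after median ratio scaling (log2 change 1.23 for Lcn2; limma adjusted p = 0.063) and after quantile normalization (1.22; limma adjusted p = 0.0639). Nor did it pass with either control library or 7 day replicate 2 left out (limma adjusted p = 0.126, 0.145 and 0.137), with a log2 change of 0.89 in the last case. The log2 change at 28 days was 0.11 (95% interval -0.66 to 0.87), and that of 28 day against 7 day hearts was -1.27 and did not pass (limma adjusted p = 0.0786).

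Cp encodes ceruloplasmin, the copper-carrying ferroxidase of plasma. It was the highest of the 7 in control hearts, at 12.7 and 15.0 RPKM, and stood at 16.3 and 20.3 RPKM at 7 days and at 18.9 and 16.1 RPKM at 28 days. Every infused heart lay above both controls, by a small margin. The mean was 18.3 ± 2.84 RPKM in 7 day hearts and 13.8 ± 1.62 RPKM in control hearts, 0.39 apart on the log2 scale without passing (95% interval 0.03 to 0.74; limma adjusted p = 0.126). At 28 days the log2 change was 0.33 (95% interval -0.03 to 0.68; limma adjusted p = 0.257). The upper ends of both intervals lie below the log2 change of 1.38 by which Lcn2 rose at 7 days. They overlap the 95% interval of that change, 0.61 to 2.14, and a difference between the genes was not tested.

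Orm1 encodes orosomucoid 1, an acid glycoprotein of liver that carries drugs and other small molecules in plasma. It was at 0 and 0.477 RPKM in the control hearts, 0.534 and 0 RPKM at 7 days and 0.442 and 0 RPKM at 28 days. Each group thus held 1 library at 0, and the others corresponded to an estimated 4.14 to 5.87 reads. Without the filter its log2 change was 0.04 at 7 days and -0.03 at 28 days (limma adjusted p = 0.992 and 1), and a difference was not detectable at this depth. Of its 50-base windows, 20.4% also occur in Orm2 or Orm3, so its few reads cannot be assigned with certainty. Orm2 reached at most 0.118 RPKM, and Orm3 was above 0 only in 28 day replicate 1, at 0.251 RPKM.

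Ptx3 encodes the long pentraxin 3, which binds microbes and the complement component C1q and is made by endothelium, macrophages and fibroblasts. It was at 0.171 and 0.244 RPKM in the control hearts, 1.68 and 1.99 RPKM at 7 days and 0.563 and 0.672 RPKM at 28 days. The 3 groups did not overlap, with the 7 day hearts highest and the controls lowest. In estimated reads it had 3.95 and 5.95 in control hearts, 45.4 and 52.6 in 7 day hearts and 12.9 and 13.9 in 28 day hearts. The mean was 1.84 ± 0.214 RPKM in 7 day hearts and 0.208 ± 0.0522 RPKM in control hearts, and in the unfiltered test Ptx3 rose by a log2 change of 1.72 (SE 0.13; limma adjusted p = 0.00776). Without single libraries the log2 change lay between 1.63 and 1.81. Leaving out any single library ended this call. The same step ended nearly all calls of the unfiltered test, so the loss says little about Ptx3 itself. At 28 days the log2 change was 0.66 and did not pass (limma adjusted p = 0.114), in a test in which 0.256% of genes were higher.

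**Figure D2:**
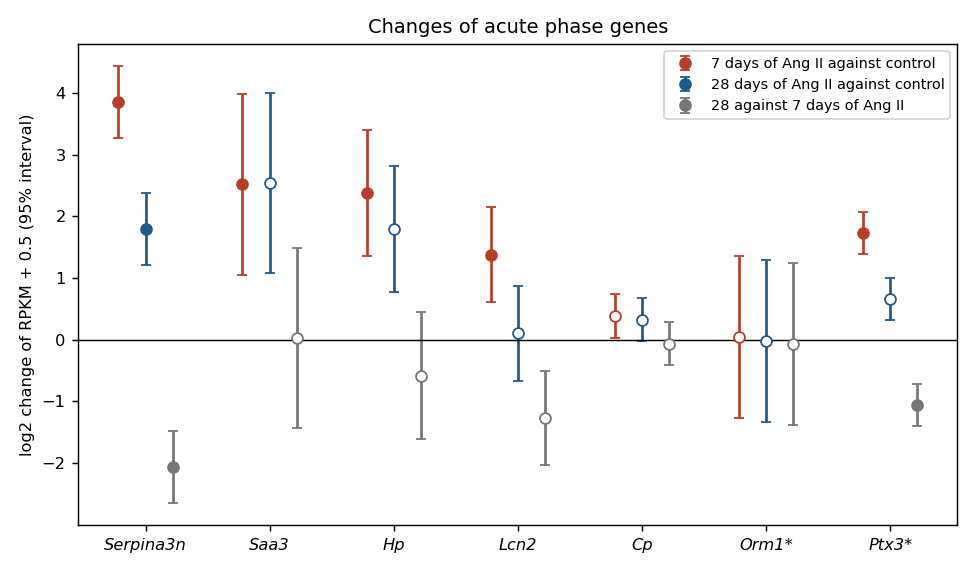
Log2 change of RPKM + 0.5 (vertical axis) of each acute phase gene in the 3 comparisons, with 95% intervals from limma (n = 2 per group). Filled points passed at an adjusted p under 0.05 and open points did not; an asterisk marks genes taken from the test without a filter, and Serpina3n has the highest change at 7 days, at 3.86.

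The comparison of 28 with 7 days of infusion asked whether the early levels were kept. Of the 5 tested genes 1 fell, Serpina3n, where 4.67% of all tested genes passed in either direction, 0.406% higher and 4.26% lower. With median ratio scaling 0.568% were higher and 2.03% lower, and with quantile normalization 0.496% were higher and 1.89% lower. By an unadjusted p under 0.05 with a threshold on the fold change Lcn2 fell as well. That makes 2 of the 5, beside 2.24% of all tested genes that were lower. In the unfiltered test, in which 1.36% of genes were lower, Ptx3 fell by 1.06 on the log2 scale (limma adjusted p = 0.0397). This call was lost whichever library was left out, as were nearly all calls of that test. The intervals of Saa3, Hp and Cp between the infused groups all held 0, with the log2 change of Hp at -0.58 (95% interval -1.60 to 0.44) and that of Cp at -0.06 (95% interval -0.42 to 0.29). The comparisons of 7 and of 28 days with the controls share the same control libraries.

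The make-up of the group of 7 also differed with time. Their summed level was 20.9 and 23.0 RPKM in the control hearts, 75.1 and 128 RPKM at 7 days and 51.3 and 36.0 RPKM at 28 days. By group means, Serpina3n held 16.4% of that sum in control hearts, 60.1% in 7 day hearts and 31.5% in 28 day hearts. Cp held 63.0% in control, 18.0% in 7 day and 40.0% in 28 day hearts. Hp and Saa3, which were 4.24% and 0.465% of the sum in the controls, were 7.16% and 3.63% at 7 days and 11.5% and 7.36% at 28 days.

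The infused hearts of 1 time point differed from each other, and within each infused group the 5 tested genes differed in the same direction. In the control hearts they did not: the RPKM ratio of replicate 2 to replicate 1 was 0.940 for Serpina3n and 0.864 for Lcn2 but 1.09 for Hp and 1.18 for Cp. At 7 days replicate 2 was higher than replicate 1, with an RPKM ratio of 4.99 for Saa3, 2.05 for Lcn2, 1.94 for Hp, 1.75 for Serpina3n and 1.25 for Cp. The median log2 difference of all tested genes between these libraries was -0.01. Of the tested genes, 0.0631% were higher in replicate 2 by at least as much as Saa3, 0.676% by at least as much as Serpina3n and 9.84% by at least as much as Cp. Genes higher in replicate 1 were not counted in these shares. Ptx3 had a ratio of 1.18.

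At 28 days it was replicate 1 that was higher, with an RPKM ratio to replicate 2 of 2.78 for Hp, 2.49 for Saa3, 1.64 for Lcn2, 1.25 for Serpina3n and 1.18 for Cp. The ratio was 0.839 for Ptx3, which was thus higher in replicate 2. Across the 6 libraries the log2 levels of Saa3 and Hp had a Pearson correlation of 0.946, those of Hp and Cp 0.930 and those of Serpina3n and Hp 0.904. The lowest among the 5 tested genes was 0.654, between Lcn2 and Saa3. These values describe 6 libraries in 3 groups and carry no test.

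**Figure D3:**
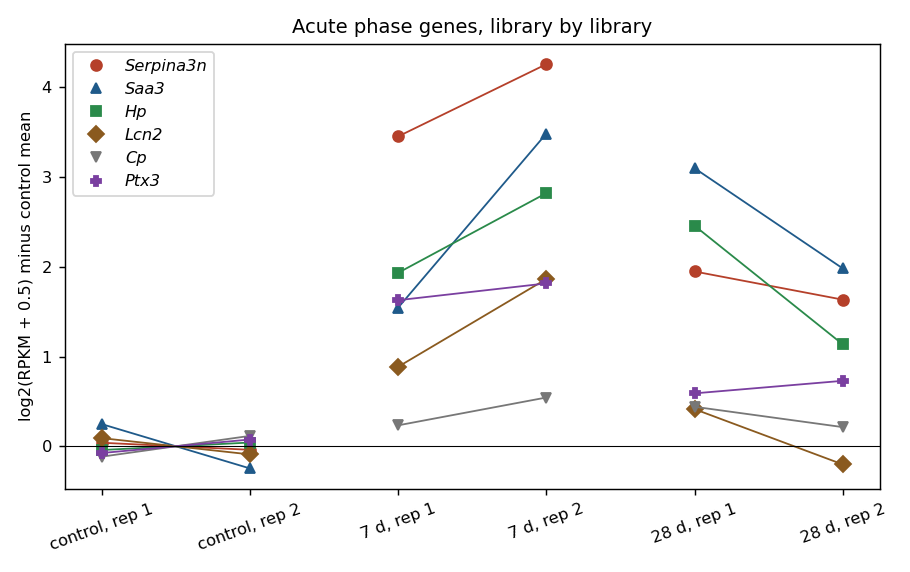
Log2(RPKM + 0.5) of 6 acute phase genes in each library, as the difference from the mean of the 2 control libraries; lines join the libraries of a group. The 5 tested genes are higher in 7 day replicate 2 than in replicate 1 and higher in 28 day replicate 1 than in replicate 2, and Ptx3 is nearly level within each infused group.

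For each tested gene the 3 genes with the most similar pattern over the 6 libraries were taken by Pearson correlation of log2(RPKM + 0.5). For Serpina3n they were Tbcd (0.996), Slc25a23 (0.995) and Mmp14 (0.994). For Saa3 they were Hnrnpul1 (0.987), Npepl1 (0.986) and Errfi1 (0.983), and for Hp they were Usp42 (0.997), Htt (0.993) and Igf2bp2 (0.991). Lcn2 was closest to Atg13 (0.990), Egfr (0.984) and Tgfbr1 (0.983), and Cp to Ubqln1 (0.987), Rbm12 (0.982) and Kif13a (0.980). The genes were picked from 11096 for their fit to 6 libraries in 3 groups, so the values are a description with no test.

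Other genes whose products rise in an acute phase response were taken from a list of 36, of which 11 reached the mean level for testing. At 7 days 7 of the 11 rose, beside 13.2% of all tested genes, and 4 did not pass. The median log2 change of the 11 was 0.95. The 3 with the largest changes were complement genes: Cfb, a protease of the alternative pathway, rose by 1.96 (limma adjusted p = 0.0115), C4b by 1.68 (limma adjusted p = 0.00265) and C3, the central complement component, by 1.57 (limma adjusted p = 0.0117). C4b was at 2.90 and 2.92 RPKM in control hearts, 8.53 and 12.8 in 7 day hearts and 7.12 and 6.22 in 28 day hearts. Lbp, which binds bacterial lipopolysaccharide, rose by 1.01, Serping1, the inhibitor of the first complement protease, by 0.95, Cd14, a lipopolysaccharide co-receptor, by 0.70 and Steap4, a metalloreductase, by 0.52. The calls of C4b and Serping1 held without any single library, and those of the other 5 did not.

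At 28 days 1 of the 11 rose, C4b, by a log2 change of 1.07 (limma adjusted p = 0.0283). This call was lost whichever library of these groups was left out. By an unadjusted p under 0.05 with a threshold on the fold change 3 rose, beside 4.35% of all tested genes. Between the infused groups 3 of the 11 fell in 28 day relative to 7 day hearts: Cfb by 1.64, Cd14 by 0.91 and Serping1 by 0.69 on the log2 scale. Of all tested genes, 2.87% were higher at 28 days than in the controls, and 4.26% were lower at 28 than at 7 days. Each of the calls of Cfb, Cd14 and Serping1 was lost when 1 or another library was left out, and median ratio scaling left 0. Some liver members of the list were close to 0. Apcs and Fgb were at 0 in all libraries, Crp was at 0.0489 RPKM in control replicate 1, at 0.0550 RPKM in 28 day replicate 2 and at 0 in the others, and Fga was above 0 only in 28 day replicate 1, at 0.0123 RPKM. Hamp, which encodes the iron regulator hepcidin and is also expressed in the heart, was at 4.22 and 6.03 RPKM in control hearts, 0 and 1.74 RPKM in 7 day hearts and 17.0 and 0 RPKM in 28 day hearts, and did not pass in any comparison.

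Genes of proteins that decrease in plasma during inflammation were listed as 8, of which Ahsg, Apoa2 and Trf were tested. In limma 0 of the 3 passed in any comparison. At an unadjusted p under 0.05 there were 1 at 7 days, 0 at 28 days and 1 between the infused groups. The share of all tested genes at that threshold was not counted. Trf, which encodes the iron carrier transferrin, was at 14.9 and 18.5 RPKM in control hearts, 23.6 and 30.2 RPKM in 7 day hearts and 19.1 and 12.2 RPKM in 28 day hearts.

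Of 33 genes of the cytokines, receptors and transcription factors that induce acute phase genes, 24 were tested. At 7 days 9 of the 24 rose (median log2 change 0.52), beside 13.2% of all tested genes that were higher. Socs3, a feedback inhibitor that STAT3 induces, rose by 1.31 (limma adjusted p = 0.00652) and was at 0.923 and 1.54 RPKM in control hearts, 3.79 and 3.63 in 7 day hearts and 2.56 and 2.24 in 28 day hearts. The NF-kB subunit genes Relb, Nfkb2 and Rela rose by 1.17, 0.71 and 0.61, the tumour necrosis factor receptor genes Tnfrsf1a and Tnfrsf1b by 0.99 and 0.74, Cebpd by 0.81, Stat3 by 0.73 and the interleukin 1 receptor gene Il1r1 by 0.59. Of these 9 calls, that of Tnfrsf1a held without any single library. Il6, which encodes the main inducer, lay below the mean level for the main test, at 0.0813 and 0.0778 RPKM in control hearts, 0.558 and 0.572 in 7 day hearts and 0.165 and 0.183 in 28 day hearts. In the unfiltered test it rose at 7 days by a log2 change of 0.88 (SE 0.07; limma adjusted p = 0.00764), and it fell by 0.66 in 28 day relative to 7 day hearts (limma adjusted p = 0.0302). Leaving out 1 library ended the 7 day call in 5 of 6 cases and the other call in all 6. The same step ended nearly all calls of the unfiltered test, so this says little about Il6 itself.

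At 28 days Cebpd rose by 1.19 (limma adjusted p = 0.0237) and Jak1, a kinase that relays interleukin 6 signals, fell by 0.64 (limma adjusted p = 0.0338). The other 22 of the 24 did not pass. Of all tested genes, 2.87% were higher and 1.54% lower at 28 days. Cebpd, which encodes a C/EBP factor, was at 4.75 and 3.71 RPKM in control hearts, 6.44 and 9.27 in 7 day hearts and 10.8 and 9.60 in 28 day hearts. Between the infused groups 1 of the 24 fell, Tnfrsf1b, by 0.64 (limma adjusted p = 0.0474), which is near the share of 4.26% of all tested genes that were lower. Leaving out control replicate 1 or control replicate 2 ended each of these 3 calls.

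Of 25 genes of receptors, partners and iron handling, 14 were tested and 6 rose at 7 days (median log2 change 0.50), beside 13.2% of all tested genes. Tfrc, the transferrin receptor for iron uptake, rose by 1.54 (limma adjusted p = 0.00414), and also at 28 days, by 2.03 (limma adjusted p = 0.00563), and both calls held without any single library. It was at 8.17 and 10.1 RPKM in control hearts, 31.9 and 23.6 in 7 day hearts and 45.0 and 33.5 in 28 day hearts, so the control hearts overlapped with neither infused group. C1qb, C1qa and C1qc, the chains of C1q, which Ptx3 binds, rose at 7 days by 0.92, 0.83 and 0.67, the scavenger receptor gene Lrp1 by 0.77 and the ferritin light chain gene Ftl1 by 0.56, and each of these 5 calls was lost when 1 or another library was left out. At 28 days Slc40a1, the iron exporter ferroportin, fell by 0.88 (limma adjusted p = 0.0301), a call lost without either control library, either 7 day library or 28 day replicate 2 (limma adjusted p up to 0.169). In 28 day relative to 7 day hearts 5 of the 14 fell, beside 4.26% of all tested genes. C1qb fell by 1.18, Hmox1, which degrades haem, by 1.16, C1qa by 1.09, C1qc by 0.97 and Ftl1 by 0.66.

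**Figure D4:**
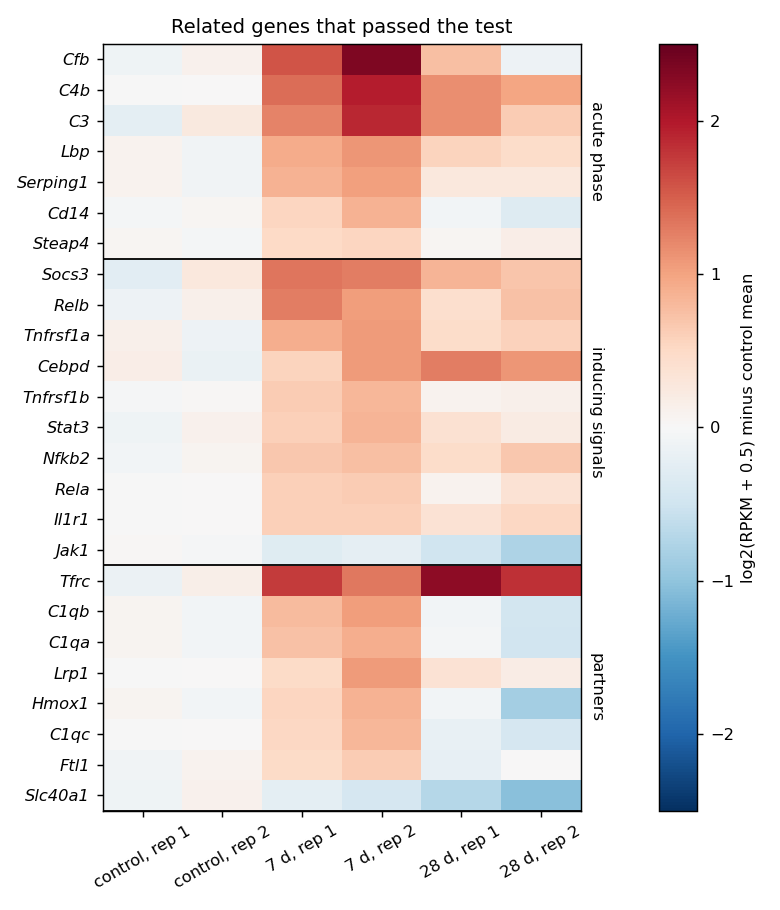
Log2(RPKM + 0.5) as the difference from the control mean (colour, red higher and blue lower) in each library, for the genes of the lists of other acute phase genes, inducing signals and partners that passed in at least 1 comparison. Cfb, C4b, C3 and Tfrc are the darkest rows at 7 days, and Tfrc is darker at 28 days, where its log2 change was 2.03.

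Markers of cell types that can make these proteins moved with time too. Of 12 macrophage markers, all tested and above 0 in every library, 11 rose at 7 days, beside 13.2% of all tested genes. Among them Ccr2 averaged 0.833 RPKM in control and 0.999 RPKM in 28 day hearts. It thus reached the mean for testing only through the 7 day hearts. The list summed to 259 and 271 RPKM in control hearts, 450 and 487 in 7 day hearts and 236 and 168 in 28 day hearts. Of 9 fibroblast markers, all tested, 6 rose at 7 days, namely Col1a1, Col1a2, Col3a1, Lum, Postn and Dpt. Dcn, Pdgfra and Tcf21 did not pass, with log2 changes of 0.32, 0.25 and 0.11. The fibroblast sums were 486 and 490 RPKM in control hearts, 1073 and 1116 in 7 day hearts and 566 and 466 in 28 day hearts. Both lists were thus highest in the hearts where Serpina3n, Lcn2 and Ptx3 were highest, but differed less between the 7 day replicates than Saa3 did. The 8 endothelial markers summed to 233 and 220 RPKM in control hearts, 300.0 and 337 in 7 day hearts and 223 and 276 in 28 day hearts, and the 8 mesothelial markers to between 6.40 and 10.6 RPKM in all libraries. The part of these cells in the changes was not tested.

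Neutrophil markers followed another order. Of 12 listed 11 were in the table, Mpo and Elane were at 0 in all libraries, and the list summed to 2.19 and 1.80 RPKM in control hearts, 7.12 and 13.8 in 7 day hearts and 34.2 and 126 in 28 day hearts. Of the 3 that were tested, S100a8, S100a9 and Retnlg, 0 passed at 7 days in limma. By an unadjusted p under 0.05 with a threshold on the fold change 2 rose, beside 3.48% of all tested genes. At 28 days all 3 rose, beside 2.87% of all tested genes. They averaged 0.644, 0.809 and 0.0814 RPKM in the control hearts, so they reached the mean for testing only through the infused hearts. S100a8 and S100a9 held 51.8 and 64.4 RPKM of the sum in 28 day replicate 2. Camp was at 0 in every infused heart, and Ltf and Ngp reached at most 0.148 and 0.169 RPKM. Mmp8, Cxcr2 and Csf3r were highest in 28 day replicate 2, at 0.700, 0.498 and 1.29 RPKM. Lcn2 was lowest, at 2.57 RPKM, in 28 day replicate 2, where the neutrophil sum was highest. In 7 day hearts Lcn2 was at 6.03 and 12.4 RPKM, higher in replicate 2, as was the neutrophil sum. The part of neutrophils was not tested. The adipocyte markers without Fabp4, which the endothelium of the heart also expresses, summed to 3.89 and 7.97 RPKM in control hearts, 14.2 and 12.4 in 7 day hearts and 57.3 and 3.39 in 28 day hearts. Of these sums Cfd held 2.37 and 5.12, 10.6 and 9.40, and 40.0 and 2.34 RPKM. At 7 days Adipoq, Cidec, Lep and Ucp1 overlapped with the controls, and Retn and Plin1, at levels below Cfd, lay above them. The 28 day heart with more of the adipocyte markers was replicate 1, in which Hp and Saa3 were also higher than in replicate 2. The part of adipose tissue was not tested.

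**Figure D5:**
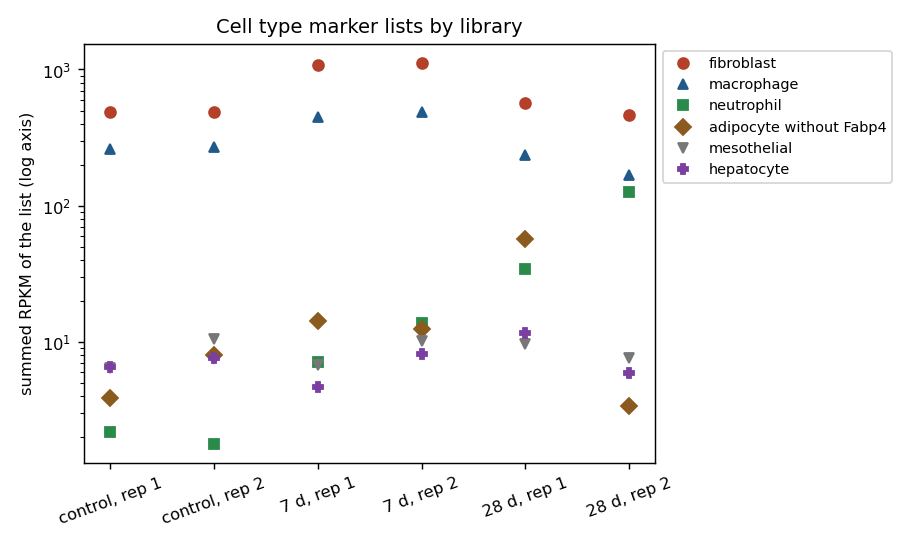
Summed RPKM (vertical log axis) of 6 lists of cell type markers in each library. Fibroblast and macrophage sums are highest in both 7 day libraries, the neutrophil sum is highest in 28 day replicate 2 at 126 RPKM and the adipocyte sum in 28 day replicate 1 at 57.3 RPKM.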

How the data were processed

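The values were RPKM per gene and library, deposited by the authors in 1 table; the unit is named per the file headers. TopHat2 2.0.12, Bowtie 0.12.9, HTSeq and DESeq2 appear in the submitters' processing notes with no role, beside 2 genome builds, mm8 and mm9. For the annotation and the RPKM tool nothing is given in the sources used here.

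All 6 libraries were fitted together on log2(RPKM + 0.5) in limma 3.58.1 (R 4.3.3) with group means and a mean-variance trend, two-sided, with Benjamini-Hochberg adjustment over the 11096 of 22556 genes with a mean of at least 1 RPKM. To estimate reads, RPKM values below 0.3 were multiplied by transcript length for genes with 1 GENCODE M21 transcript. The most common product was taken as 1 read. Intervals and such reads cover no biological variation beyond these libraries. Tables and figures used matplotlib 3.10.9, pandas 2.3.3 and numpy 2.4.6 under Python 3.11.15. The fit was tested on simulated data. Gene members and lists were chosen with earlier results of these data known. Named genes were the members, at most 6 passing genes per list and comparison by size of change, close paralogs and the 3 best correlated genes. Steap4, Nfkb2, Rela and Il1r1 fall outside this rule and were named after their values were seen, as were Cd163, Trf, Il6, Hamp, Myl7, Nppa, Alb, Crp, Fga, Apcs and Fgb. Promoter sequences and start sites are RefSeq's, on GRCm38.p6, matched by symbol. Alternatives were other pseudocounts, filters and scalings, a replicate block and no trend. Each library was also left out in turn, and a fit used only those groups being compared. A fold threshold with unadjusted p was used as well, set lower for 28 days against control than for the other comparisons.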

Additional observations from a re-analysis of the deposited data

Results flagged for a closer look

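Genes are given here because their levels differed between 28 and 7 days of infusion by limma. The only control group was at 0 days, so effects of Ang II and of time cannot be told apart in this difference. Serpina3n had a log2 change of -2.06 in 28 day relative to 7 day hearts (limma adjusted p = 0.0089), lower in both 28 day libraries than in either 7 day library. Ptx3, in the unfiltered test, had -1.06 (limma adjusted p = 0.0397), and Il6 in the same test had -0.66 (limma adjusted p = 0.0302). Among other acute phase genes, the log2 change was -1.64 for Cfb, -0.91 for Cd14 and -0.69 for Serping1. The tumour necrosis factor receptor gene Tnfrsf1b had -0.64, the haem-degrading Hmox1 -1.16 and the ferritin light chain gene Ftl1 -0.66. The C1q chains C1qa, C1qb and C1qc had -1.09, -1.18 and -0.97. The limma adjusted p of the 9 genes other than Serpina3n, Ptx3 and Il6 lay between 0.0113 for C1qb and 0.0483 for Hmox1. Serpina3n was the one of the 12 that kept its call without any single library. For Ptx3 and Il6 this says little, since nearly all calls of the unfiltered test were lost in that way.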

How the results depend on the processing

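Counts of calls depended on the settings. The fold threshold used with unadjusted p was lower for 28 days against control than for the other comparisons. Counts by it thus cannot be set against each other between comparisons. At 7 days 4 of the 7 acute phase genes passed, against 2 without a filter, with a mean of at least 5 RPKM (where 3 were tested), with median ratio scaling and with quantile normalization. At 28 days the 1 call became 2 with 0.1 RPKM added or with only the 2 groups compared, 0 without a filter and 3 by unadjusted p with a fold threshold, and between the infused groups the 1 call became 2 without a filter or by unadjusted p. Without single libraries these counts ranged from 1 to 4, from 0 to 2 and from 1 to 1.

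Of the other acute phase genes, 7, 1 and 3 passed at 7 days, at 28 days and between the infused groups. A mean of at least 5 RPKM gave 4 at 7 days and 1 between the infused groups. No filter gave 0 at 28 days and 1 between the infused groups, and unadjusted p gave 3 and 1, with the lower fold threshold at 28 days. Median ratio scaling gave 0 between the infused groups, and quantile normalization and only the 2 groups compared gave 1. Without single libraries the ranges were 2 to 9, 0 to 1 and 0 to 3. Of the inducing genes 9, 2 and 1 passed. A mean of at least 5 RPKM gave 5 at 7 days, and unadjusted p gave 2 at 7 days and 4 at 28 days, where its fold threshold was lower. No filter gave 0 at 28 days, and no trend, only the 2 groups compared and the replicate block gave 1. Between the infused groups a mean of at least 5 RPKM, both scalings, only the 2 groups compared, the block and unadjusted p gave 0. Without single libraries the ranges were 2 to 9, 0 to 1 and 0 to 1.

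Directions turned only for changes that had not passed. Between the infused groups Saa3 was -0.0028 with 1 RPKM added and was -0.9446 without 7 day replicate 1 and -0.5336 without 28 day replicate 1 (range without single libraries -0.9446 to 0.9953). Hp ranged from -1.2408 to 0.0813, the highest without 28 day replicate 2. Cp ranged from -0.2165 to 0.0935, was above 0 without 7 day replicate 2 or 28 day replicate 2 (0.0518), and was 0.0764 with median ratio scaling and 0.0511 with quantile normalization. Lcn2 at 28 days ranged from -0.202 without 28 day replicate 1 to 0.4137. Orm1 at 7 days was -0.0412 after quantile normalization, -0.4425 without control replicate 1 and -0.4832 without 7 day replicate 1. At 28 days it was 0.4572 without control replicate 2 and 0.4312 without 28 day replicate 2. Between the infused groups it was 0.0207 after quantile normalization, 0.4572 without 7 day replicate 1 and 0.3905 without 28 day replicate 2. The cause was not tested.

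Replicate numbers were not taken as pairs, since the differences between replicates correlated over 11096 genes at 0.149 for 7 day and control hearts, -0.0193 for 28 day and control hearts and -0.0139 for 28 and 7 day hearts. With the replicate block 3 acute phase genes passed at 7 days, and the call of Saa3 was lost (limma adjusted p = 0.0547). Where a group was left with 1 library, its spread was taken from the other groups. With 2 libraries per group and few reads of Saa3, Orm1 and Ptx3 in the controls, changes of these genes are poorly fixed.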
